A study of Homo sapiens with 9 samples.

Results

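Solute carriers are the membrane proteins that move amino acids, sugars, ions, metals, vitamins and nucleosides into and out of cells and organelles. A carrier of the plasma membrane or of an organelle works either by exchange of solutes or by coupling to an ion gradient, and some carriers need a partner chain to reach the membrane. Carcinoma cells are known for high levels of the amino acid exchanger chains SLC7A5 and SLC3A2 and of the glutamine carrier SLC1A5.

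The genes described here were the 143 genes whose symbol has the solute carrier form, SLC, a family number, A and a member number, and whose mean FPKM (fragments per kilobase of transcript, scaled to the depth of the library) over the Scramble libraries was at least 3. They came from 313 genes with such a symbol, 9728 genes at or above the same level and 18143 genes listed in all. RNA was sequenced from A549 cells, an established line of human lung adenocarcinoma cells, 48 h after transfection with a scramble siRNA (Scramble) or with 1 of 2 siRNAs against REV1, a translesion DNA polymerase (SiREV1#1 and SiREV1#2). All 9 libraries came from this single line with no other agent or allele named, and each of the 3 groups held 3 libraries numbered 1 to 3. The study's methods say in general terms that its in vitro experiments were independently repeated, but neither they nor the labels say whether these numbered libraries were separate cultures, so p-values measure the spread between these libraries, which may be technical.

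REV1 stood at 7.23, 7.9 and 8.44 FPKM in Scramble, at 2.6, 2.92 and 3.36 after SiREV1#1 and at 3.62, 3.36 and 3.18 after SiREV1#2. Both siRNA groups lay below all Scramble libraries, with log2 fold changes of -1.38 (limma adjusted p = 0.0095) and -1.19 (limma adjusted p = 0.026). Total counts ran from 13059082 to 20166451 per library, and the count column of SiREV1#2 replicate 3 repeated that of replicate 2, so counts were used for 8 libraries and FPKM for 9. SiREV1#1 replicate 1 was the shallowest library and stood apart, with 7.23% of its FPKM in MTRNR2L2. Some counts of genes and some gene values are given with and without that library, and others only with it. Replicate 1 of every group also differed from replicates 2 and 3 at most genes. The A549 and epithelial markers KRT8, KRT18, AKR1B10 and ALDH1A1 were high in every library, KRT19 and EPCAM were at or below 2.38 FPKM, and of 9 listed markers of other cell types 8 stayed at or below 1.8 FPKM. The exception was CD68, a lysosomal gene used as a macrophage marker, at 18.3 to 81.6 FPKM.

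Short sequence matches of the siRNAs are shown first, because the 10 solute carrier genes that differed between the siRNAs are read against them below. An siRNA guide strand can pair with other transcripts through its bases 2 to 8, the seed, and the 7-base words that pair with the seeds are CAGGAAT for SiREV1#1 and GGACGAC for SiREV1#2. The intended sites in REV1 lie on the minus strand of chromosome 2 (GENCODE release 29, GRCh38), in exon 18 of 23 at chr2:99404474-99404492 and across exons 4 and 5 at chr2:99442452-99449336, and capitals mark the 7-base word.

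REV1, SiREV1#1 site: gaacagtgacgCAGGAATa
REV1, SiREV1#2 site: gcatcaaagctGGACGACt

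The next windows hold the same words in genes that were lower after the matching siRNA than after the other one. They lie in SLC17A5 (coding, exon 10 of 11, minus strand, chr6:73600378-73600404), SLC30A6 (coding, exon 14 of 14, plus strand, chr2:32220609-32220635), SLC26A6 (3′ UTR, exon 21 of 21, minus strand, chr3:48625731-48625757), SLC36A1 (3′ UTR, exon 11 of 11, plus strand, chr5:151490207-151490233) and SLC6A8 (coding, exon 11 of 13, plus strand, chrX:153694539-153694565).

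SLC17A5, SiREV1#1 word: gccactattcCAGGAATggttgggccc
SLC30A6, SiREV1#1 word: cttggagttcCAGGAATtggagcaact
SLC26A6, SiREV1#1 word: attttagcctCAGGAATaaagatttgt
SLC36A1, SiREV1#1 word: gctatgtgacCAGGAATctagccggga
SLC6A8, SiREV1#2 word: accgcttcatGGACGACattgcctgta

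The SiREV1#1 word was found on the transcript strand in the coding sequence or 3′ UTR of 46 of the 143 genes (32.2%), beside 28.2% of the other genes tested, and the SiREV1#2 word in 13 (9.09%), beside 10.1%. The median log2 fold change after SiREV1#1 was -0.049 in the 46 genes with its word and 0.014 in those without it. After SiREV1#2 the median was -0.02 in the 13 genes with its word and 0.082 in those without it. In the other genes tested the same medians were -0.186 and -0.042 for SiREV1#1, and -0.358 and 0.02 for SiREV1#2. A match is a description of the sequence, and no match was tested as a site.

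Levels in Scramble spanned from 3.02 to 503 FPKM with a median of 11.1. Genes at 100 FPKM or more numbered 8, and 63 lay below 10. SLC26A2 (3.02), SLC22A17 (3.21) and SLC35A3 (3.24) lay just inside the level of 3, and SLC6A9 (2.97) and SLC19A3 (2.86) just outside it.

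**Figure D1:**
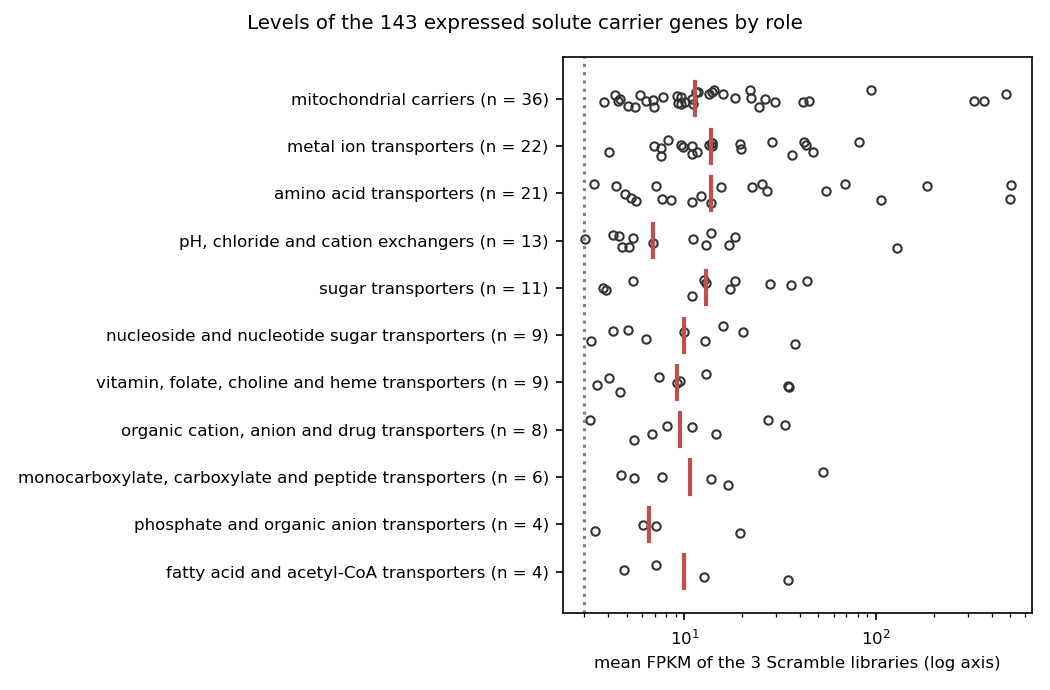
Mean FPKM of the 3 Scramble libraries (log axis) for each of the 143 genes, grouped by the known substrates of their families, with a red bar at the median of each group and a dotted line at the level of 3 that chose the genes. The highest points, from 322 to 503 FPKM, were amino acid transporters and mitochondrial carriers.

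The highest levels belonged to genes of amino acid exchange and of the mitochondrial inner membrane. SLC7A5, the light chain of the large neutral amino acid exchanger, averaged 503 ± 178 FPKM (SD, n = 3) in Scramble, and SLC3A2, its heavy chain, 497 ± 222. The ADP/ATP carriers SLC25A5 and SLC25A6 averaged 477 ± 25.0 and 322 ± 15.0, and SLC25A3, the mitochondrial phosphate carrier, 364 ± 15.0. The Scramble libraries of SLC7A5 and SLC3A2 ran from 241 to 635 FPKM and overlapped those of the other three. The latter did not overlap each other, at 456 FPKM or more for SLC25A5, 348 to 378 for SLC25A3 and 304 to 331 for SLC25A6. Below them came the glutamine carrier SLC1A5 (184 ± 35.1), the chloride-bicarbonate exchanger SLC4A2 (128 ± 20.5), SLC7A7, the light chain of a cationic amino acid exchanger (106 ± 12.7), SLC25A39, a carrier of mitochondrial glutathione uptake (93.8 ± 12.1), and the zinc importer SLC39A1 (81.1 ± 10.1). The ranges of SLC4A2, SLC7A7 and SLC25A39 overlapped.

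By role, the mitochondrial carriers numbered 36, the metal ion transporters 22 and the amino acid transporters 21. The pH, chloride and cation exchangers numbered 13, the sugar transporters 11, and the nucleoside and vitamin groups 9 each. The 143 genes together took between 0.75% and 1.08% of a library's FPKM, and in each group replicate 1 had the lowest share.

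Scramble levels chose the genes, and the contrast of SiREV1#1 with SiREV1#2 is the one that sets no Scramble value against another, although the Scramble libraries enter its estimate of spread in the fit of 3 groups. In bulk RNA, fewer cells with a transcript and less of it per cell cannot be told apart. Between the siRNAs, 10 of the 143 genes passed limma-trend on log2(FPKM + 0.1) at an adjusted p under 0.05 (two-sided), beside 5.29% of all 11432 genes tested. With only the 6 siRNA libraries fitted, 3 genes passed (SLC25A3, SLC25A30 and SLC26A6), beside 1.07% of all genes, and edgeR on counts called these 3 as well, beside 0.676%. The other 7 calls were lost in both fits. Of the 10, 8 were lower after SiREV1#1 (3.04% of all genes) and 2 were higher (2.25%). With every library scaled to the same median the split was 7 lower and 4 higher, beside 5.9% of all genes (2.88% lower, 3.02% higher). The genes lower after SiREV1#1 were 3 mitochondrial carriers, 2 anion exchangers, the lysosomal sialic acid exporter SLC17A5, the lysosomal amino acid carrier SLC36A1 and the Golgi zinc carrier SLC30A6. Those higher after SiREV1#1 were SLC38A7, a lysosomal glutamine exporter, and SLC6A8, the creatine importer.

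SLC25A3 (Gene ID 5250) gave 378, 366 and 348 FPKM in Scramble, 138, 163 and 164 after SiREV1#1 and 396, 341 and 348 after SiREV1#2. Its SiREV1#1 libraries lay apart from all others, while Scramble and SiREV1#2 overlapped. The difference between the siRNAs was -1.23 ± 0.13 (log2, SE, n = 3 per group, limma adjusted p = 0.0027). SLC25A30 (Gene ID 253512), another carrier of the inner mitochondrial membrane, gave 5, 5.99 and 6.59 FPKM in Scramble, 1.29, 1.04 and 1.67 after SiREV1#1 and 4.19, 5.07 and 4.6 after SiREV1#2. Again the SiREV1#1 libraries stood alone, and the siRNAs differed by -1.74 ± 0.22 (log2, limma adjusted p = 0.0052). The mitochondrial ornithine carrier SLC25A15 (Gene ID 10166) gave 8.52, 7.75 and 7 FPKM in Scramble, 3.8, 4.45 and 3.87 after SiREV1#1 and 9.8, 6.76 and 6.88 after SiREV1#2. It followed the same order, with a difference of -0.92 ± 0.19 (limma adjusted p = 0.034). None of these 3 mitochondrial carriers held either 7-base word in its coding sequence or 3′ UTR.

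SLC26A6 (Gene ID 65010), an exchanger of chloride, oxalate and bicarbonate, gave 3.9, 4.7 and 4.15 FPKM in Scramble, 2.18, 1.47 and 1.79 after SiREV1#1 and 5.17, 7.22 and 7.61 after SiREV1#2. The 3 groups did not overlap, with SiREV1#1 lowest and SiREV1#2 highest. The siRNAs differed by -1.82 ± 0.22 (log2, limma adjusted p = 0.0049), the largest of the 10 differences. SLC26A2 (Gene ID 1836), the sulfate carrier, gave 3.6, 2.66 and 2.8 FPKM in Scramble, 2.5, 2.82 and 2.77 after SiREV1#1 and 6.75, 4.74 and 4.93 after SiREV1#2. Here it was the SiREV1#2 libraries that lay above both other groups, and the difference was -0.98 ± 0.21 (limma adjusted p = 0.034).

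The lysosomal sialic acid exporter SLC17A5 (Gene ID 26503) gave 8.88, 6 and 6.41 FPKM in Scramble, 4.19, 2.64 and 2.4 after SiREV1#1 and 12.1, 9.19 and 8.48 after SiREV1#2. Replicate 1 was the highest library of each group, the siRNA groups did not overlap, and they differed by -1.68 ± 0.27 (limma adjusted p = 0.013). SLC36A1 (Gene ID 206358), which exports amino acids from lysosomes with protons, gave 3.35, 3.41 and 3.4 FPKM in Scramble, 2.32, 2.05 and 2.14 after SiREV1#1 and 3.6, 4.38 and 4.22 after SiREV1#2. All 3 groups were apart, and the siRNAs differed by -0.87 ± 0.17 (limma adjusted p = 0.023). SLC30A6 (Gene ID 55676), which loads zinc into the Golgi, gave 10.1, 9.41 and 9.34 FPKM in Scramble, 5.55, 6.73 and 6.31 after SiREV1#1 and 9.6, 10.2 and 10.2 after SiREV1#2. The SiREV1#1 libraries were below all others, with a difference of -0.69 ± 0.14 (limma adjusted p = 0.032).

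SLC38A7 (Gene ID 55238) gave 6.65, 8.09 and 8.23 FPKM in Scramble, 19.4, 19.5 and 19.8 after SiREV1#1 and 10.3, 11.6 and 11.8 after SiREV1#2. The 3 groups did not overlap, both siRNA groups lay above Scramble, and SiREV1#1 was above SiREV1#2 by 0.8 ± 0.15 (log2, limma adjusted p = 0.021). SLC6A8 (Gene ID 6535) gave 5.19, 5.68 and 4.96 FPKM in Scramble, 6.68, 8.48 and 8.94 after SiREV1#1 and 2.39, 3.64 and 3.17 after SiREV1#2. Its groups were also apart, but on either side of Scramble, and the siRNAs differed by 1.37 ± 0.21 (limma adjusted p = 0.01). Of the 50-base words of the SLC6A8 transcript, 11.1% occur in transcripts of other genes, so its FPKM is uncertain to that extent.

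**Figure D2:**
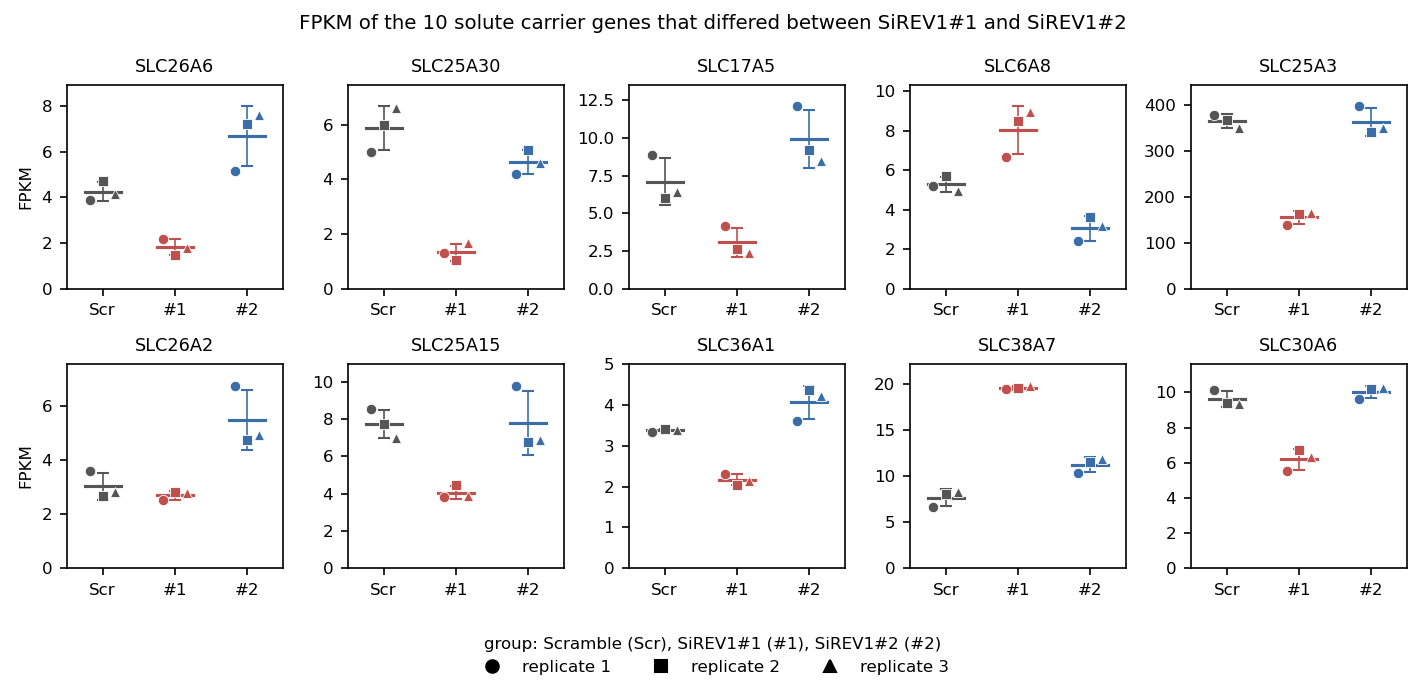
FPKM in each library for the 10 solute carrier genes that differed between SiREV1#1 and SiREV1#2 (vertical axis from 0), by group, with the marker shape giving the replicate number, a horizontal line at the mean and bars of 1 SD (n = 3). In all 10 panels the SiREV1#1 and SiREV1#2 points do not overlap, and SLC38A7 and SLC6A8 are the panels with SiREV1#1 above SiREV1#2.

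Of the 8 genes lower after SiREV1#1, 4 held its 7-base word (SLC17A5 and SLC30A6 in coding sequence, SLC26A6 and SLC36A1 in the 3′ UTR), beside 32.2% of the 143 genes and 28.2% of the other genes tested. Of the 2 genes lower after SiREV1#2, SLC6A8 held the SiREV1#2 word, beside 9.09% and 10.1%. SLC36A1 also held the SiREV1#2 word in its 3′ UTR, though it was higher after SiREV1#2 than after SiREV1#1, and that window is not shown. These counts are a description, and the part of such matches in the differences was not tested.

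Leaving out 1 library at a time gave between 3 and 15 genes, with 3 when SiREV1#1 replicate 2, SiREV1#1 replicate 3 or SiREV1#2 replicate 3 was left out. With the replicate number as a block, 49 genes passed (22 higher and 27 lower after SiREV1#1), beside 36.2% of all genes (15.4% higher, 20.9% lower), and median scaling made that split 28 and 22, beside 35.8% (19.6% and 16.2%). Without SiREV1#1 replicate 1 the block gave 69 (39 higher, 30 lower), beside 52.4% (25.3% and 27.1%). SLC7A5 passed with the block and not without it, at 1.05 ± 0.18 (limma adjusted p = 0.0039).

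Against Scramble, 4 of the 143 genes passed the same limma fit after SiREV1#1 (1 higher, 3 lower), beside 1.49% of all genes tested (0.184% higher, 1.3% lower). The 4 were SLC25A30 (-2.07 ± 0.22, limma adjusted p = 0.0053), SLC25A3 (-1.24 ± 0.13, limma adjusted p = 0.0053), SLC26A6 (-1.2 ± 0.22, limma adjusted p = 0.046) and, upward, SLC38A7 (1.35 ± 0.15, limma adjusted p = 0.006). Scramble libraries enter this contrast as well as the choice of genes. The median of the 143 genes was -0.023, beside -0.078 over all genes tested, and scaling every library to the same median moved these to 0.096 and 0.04, so no direction of the whole group is read from it. Over 2-fold differences were seen in 12 genes (8.4%), beside 3.9% of the genes at 3 FPKM or more in Scramble.

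Library numbers deviated together across the groups, and with the replicate number as a block the count after SiREV1#1 was 39 (20 higher, 19 lower), beside 19.8% of all genes (6.2% higher, 13.6% lower). Median scaling made it 42 genes (27 higher, 15 lower), beside 19.8% of all genes (10.3% higher, 9.54% lower). Without SiREV1#1 replicate 1 the block gave 61 genes (40 higher, 21 lower), beside 36.9% (15.9% and 21.1%). All 39 genes called with the block passed in the same direction without that library, and 22 more passed. The p-values in the next paragraphs are limma adjusted p-values with the block.

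Among the 36 mitochondrial carriers, 7 fell after SiREV1#1 (19.4%, beside 13.6% of all genes) and 1 rose (2.78%, beside 6.2%). With median scaling 6 fell and 3 rose, beside 9.54% and 10.3% of all genes. Without SiREV1#1 replicate 1 the block also called rises of SLC25A1 (0.68 ± 0.15), SLC25A13 (0.5 ± 0.07), SLC25A39 (0.32 ± 0.09) and SLC25A43 (0.53 ± 0.08). The same 7 fell and the same 1 rose there, beside 21.1% of all genes lower and 15.9% higher. Beside SLC25A3, SLC25A30 and SLC25A15, those that fell were the calcium-regulated ATP-magnesium carrier SLC25A23 (-1.09 ± 0.18, adjusted p = 0.0054), SLC25A14 (-0.83 ± 0.11, adjusted p = 0.0025), the ADP/ATP carrier SLC25A4 (-0.58 ± 0.15, adjusted p = 0.03) and the acylcarnitine carrier SLC25A20 (-0.51 ± 0.11, adjusted p = 0.016). SLC25A45 rose by 0.52 ± 0.12 (adjusted p = 0.019). The ADP/ATP carriers with the highest levels, SLC25A5 and SLC25A6, gave -0.13 and 0.14 and did not pass, nor did they without SiREV1#1 replicate 1, where they gave 0.1 and 0.02.

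Among the 22 metal ion transporters, 5 fell after SiREV1#1 (22.7%, beside 13.6% of all genes) and 1 rose (4.55%, beside 6.2%). With median scaling 3 fell and 1 rose, beside 9.54% and 10.3% of all genes. Without SiREV1#1 replicate 1 the block also called falls of SLC39A6 (-0.27 ± 0.09) and SLC41A1 (-0.62 ± 0.16), beside 21.1% of all genes. The 5 called with all 9 libraries were zinc carriers or zinc transporter family members, as most of the 22 are. They were SLC30A5 (-1.04 ± 0.16, adjusted p = 0.0037), SLC39A14 (-0.88 ± 0.21, adjusted p = 0.023, and -0.56 ± 0.08 without SiREV1#1 replicate 1), SLC30A6, SLC39A8 and SLC39A1. Others of these families that did not pass went both ways, such as SLC39A10 (0.29) and SLC30A1 (-0.16). SLC40A1, the iron exporter ferroportin, gave 16.1, 7.85 and 8.66 FPKM in Scramble, 26.5, 22.1 and 23.1 after SiREV1#1 and 27.3, 10.6 and 11.1 after SiREV1#2. Its SiREV1#1 libraries were above all Scramble libraries, and the block gave a rise of 1.2 ± 0.21 (adjusted p = 0.0066). For SLC39A1, 87.6% of the 50-base words of its transcript occur in transcripts of another gene, so that call is uncertain.

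Of the 21 amino acid transporters, 4 rose after SiREV1#1, beside 6.2% of all genes, and 1 fell, beside 13.6%. With median scaling 7 rose, beside 10.3%, and 1 fell, beside 9.54%. Without SiREV1#1 replicate 1 the block also called rises of SLC1A4, SLC3A2, SLC6A6, SLC7A2, SLC7A7, SLC7A11 and SLC43A1, beside 15.9% of all genes. SLC38A7 and SLC38A9, both of the lysosome, rose (1.35 ± 0.11 and 0.87 ± 0.17, adjusted p = 0.00033 and 0.012), as did SLC7A5 and SLC6A8, while SLC36A1 fell (-0.62 ± 0.14, adjusted p = 0.017). SLC7A5 gave 297, 607 and 605 FPKM in Scramble, 458, 1078 and 1077 after SiREV1#1 and 334, 428 and 417 after SiREV1#2. Within each number SiREV1#1 exceeded Scramble, by 0.62, 0.83 and 0.83 (log2), but the groups overlapped because replicate 1 was the lowest library of each, and the rise of 0.76 passed with the block (SE 0.18, adjusted p = 0.025) and not without it (limma adjusted p = 0.52). Its partner chain SLC3A2 gave 0.06 and did not pass, while without SiREV1#1 replicate 1 it passed at 0.32 ± 0.08 (adjusted p = 0.021).

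All 4 genes called among the 9 nucleoside and nucleotide sugar transporters rose after SiREV1#1, beside 6.2% of all genes higher and 13.6% lower. With median scaling 4 rose and 0 fell, beside 10.3% and 9.54%. The 4 called without median scaling were the equilibrative nucleoside transporters SLC29A3 (1.19 ± 0.16, adjusted p = 0.0023), SLC29A2 (1.16 ± 0.18, adjusted p = 0.0039) and SLC29A4 (0.47 ± 0.12, adjusted p = 0.029), with SLC35A4 (0.54 ± 0.13, adjusted p = 0.025). None of the 4 passed without the block (limma adjusted p = 0.82, 0.49, 0.96 and 0.57 in that order). For each, the SiREV1#1 libraries overlapped those of Scramble. SLC29A4, also known as a monoamine transporter, shares 5.15% of its 50-base words with other genes. Genes on the opposite strand cover 12.3% of the exon bases of SLC29A2 and 10.4% of those of SLC35A4, and strand use in counting is not stated. SLC29A1 gave 0.4 and did not pass, while without SiREV1#1 replicate 1 it passed at 0.69 ± 0.14 (adjusted p = 0.0073). SLC35A5 also passed there, at 0.53 ± 0.11 (adjusted p = 0.0081), beside 15.9% of all genes higher.

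Among the 9 vitamin, folate, choline and heme transporters, 3 rose after SiREV1#1, beside 6.2% of all genes, and 1 fell, beside 13.6%. Both vitamin C transporters rose. SLC23A1 gave 13.0, 7.56 and 7.89 FPKM in Scramble, 25, 20.9 and 19.6 after SiREV1#1 and 14.7, 7.66 and 7 after SiREV1#2. The SiREV1#1 libraries lay above all the others, and the rise was 1.23 ± 0.15 (adjusted p = 0.0019). SLC23A2 rose by 0.4 ± 0.1 (adjusted p = 0.029), the choline transporter family member SLC44A2 rose by 0.47 ± 0.14 (adjusted p = 0.049), and the thiamine transporter SLC19A2 fell by 1.0 on the log2 scale (SE 0.15, adjusted p = 0.0043). Of the 11 sugar transporters, 3 rose (SLC37A4, SLC45A4 and SLC50A1) and 1 fell, beside the same shares. It was the glucose transporter SLC2A1, which fell by 0.82 (SE 0.16, adjusted p = 0.012). The SiREV1#1 libraries of SLC23A2 and SLC2A1 overlapped those of Scramble, and neither gene passed without the block (limma adjusted p = 0.83 and 0.59). With median scaling 4 sugar transporters rose and 1 fell, beside 10.3% and 9.54%, and the vitamin counts stayed the same. Without SiREV1#1 replicate 1 the block also called a rise of the sugar transporter SLC37A1 (0.49 ± 0.14, adjusted p = 0.031), beside 15.9% of all genes higher.

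SLC18A2, the vesicular monoamine transporter, was the single gene of the 143 that moved at least 1.5-fold one way in 3 of 3 same-numbered pairs for both siRNAs. No share of all genes that did so for both is given, so this count is a description. It gave 12.1, 5.66 and 6.66 FPKM in Scramble, 2.48, 2.24 and 2.16 after SiREV1#1 and 6.81, 3.68 and 3.19 after SiREV1#2. Every siRNA library was below the Scramble library of its number, though SiREV1#2 replicate 1 exceeded Scramble replicates 2 and 3. The block gave -1.71 ± 0.2 after SiREV1#1 (adjusted p = 0.0015) and -0.82 ± 0.2 after SiREV1#2 (adjusted p = 0.037). Genes on the opposite strand cover 60.1% of the exon bases of SLC18A2, among them PDZD8, which gave 35.2, 17.1 and 21.4 FPKM in Scramble, 16.1, 11 and 11.6 after SiREV1#1 and 19.1, 11.7 and 10.3 after SiREV1#2. PDZD8 fell by 0.88 (SE 0.14, adjusted p = 0.0043) and by 0.82 (SE 0.14, adjusted p = 0.01). No source used here says that the counting used strand, so reads of SLC18A2 and of PDZD8 cannot be told apart where they overlap.

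**Figure D3:**
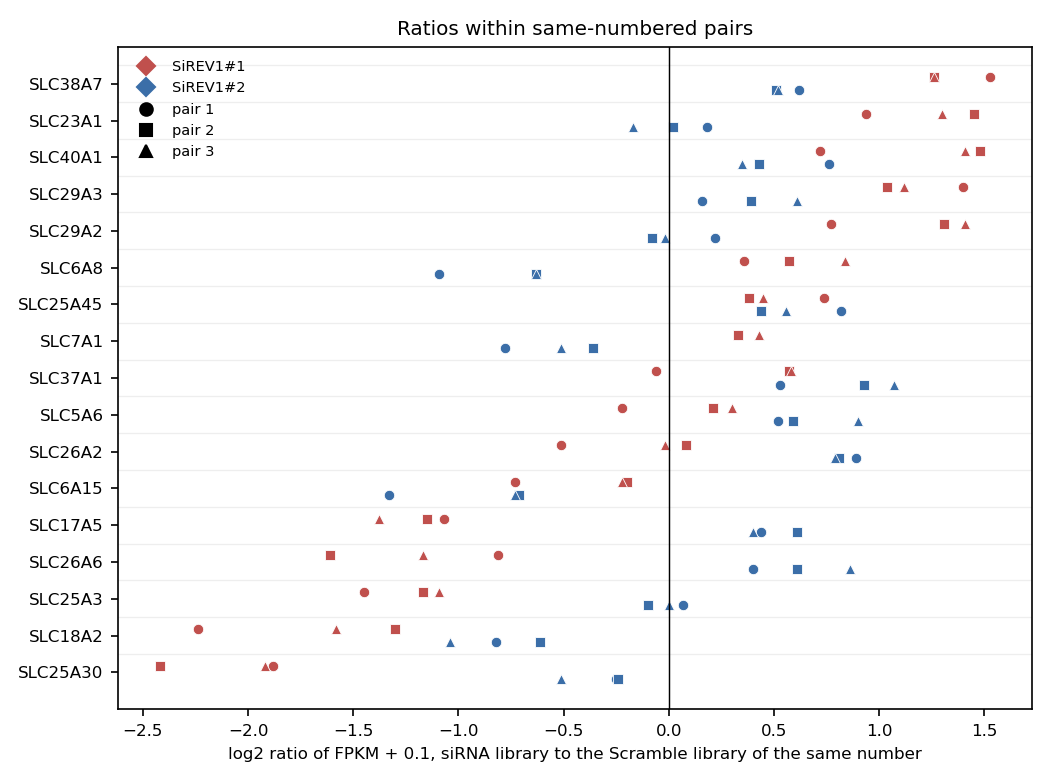
Log2 ratio of FPKM + 0.1 of each siRNA library to the Scramble library of the same number, for 17 genes that led the contrasts with Scramble, with color for the siRNA and marker shape for the pair number, and the line at 0 for no difference. SLC18A2 lies left of 0 in all 6 ratios, SLC38A7 right of 0 in all 6, and SLC6A8 and SLC7A1 lie right of 0 for SiREV1#1 and left of 0 for SiREV1#2.

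By the measure of at least 1.5-fold in 3 of 3 pairs, 17 genes moved after SiREV1#1 (7 higher, 10 lower), which is 11.9% beside 7.3% of genes at 3 FPKM or more in Scramble (1.61% higher, 5.68% lower). After SiREV1#2 4 genes moved (1 higher, 3 lower), beside 4.68% (0.884% and 3.79%). Shared sign alone in 3 of 3 pairs held for 76 genes after SiREV1#1, beside 55.6% of genes, and for 75 after SiREV1#2, beside 56.2%.

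After SiREV1#2, 0 of the 143 genes passed limma without the block, beside 0.665% of all genes tested. The lowest limma adjusted p was 0.12, and 8 genes (5.6%) were under 0.05 without adjustment, beside 8.9% of all genes. In edgeR on counts 0 passed (5 genes, 3.5%, without adjustment, beside 5.5% of all genes), beside 0.0% of all genes, and in DESeq2 2 passed, beside 1.44%. No gene of the 143 differed over 2-fold, beside 3.0% of the genes at 3 FPKM or more in Scramble. The median was 0.08, beside -0.001 over all genes.

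With the block, 11 genes passed after SiREV1#2 (6 higher, 5 lower), beside 11.3% of all genes (3.76% higher, 7.58% lower), and without SiREV1#1 replicate 1, which is in neither group compared but shares the estimate of spread and of the block, 44 passed (25 higher, 19 lower), beside 32.9% (14.4% and 18.4%). The edgeR fit with the block called 1 gene, beside 1.91%, which was SLC26A2, which rose by 0.83 ± 0.16 in limma (adjusted p = 0.018). Beside SLC26A2 and SLC17A5, those that rose were SLC37A1, a glucose-6-phosphate carrier of the endoplasmic reticulum (0.84 ± 0.16, adjusted p = 0.015), SLC5A6, the importer of biotin and pantothenate (0.67 ± 0.13, adjusted p = 0.018), SLC25A45 (0.61 ± 0.12, adjusted p = 0.018) and SLC38A7 (0.55 ± 0.11, adjusted p = 0.018). SLC5A6 is counted here with the sugar transporters by its family, though it carries vitamins.

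Among the 5 that fell after SiREV1#2 were SLC18A2 and 3 amino acid or creatine carriers of the plasma membrane. That is 3 of the 21 amino acid transporters lower, beside 7.58% of all genes, and 1 was higher (SLC38A7), beside 3.76%. None of the 3 passed limma without the block or edgeR with it. SLC6A15, a neutral amino acid carrier, fell by 0.92 (SE 0.16, adjusted p = 0.013), SLC6A8 by 0.78 (SE 0.14, adjusted p = 0.014) and SLC7A1, the cationic amino acid importer, by 0.55 (SE 0.12, adjusted p = 0.025). The contrasts of the 2 siRNAs share the Scramble libraries. For SLC17A5 they gave -1.2 and 0.48, for SLC6A8 0.59 and -0.78, and for SLC25A45 0.52 and 0.61.

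**Figure D4:**
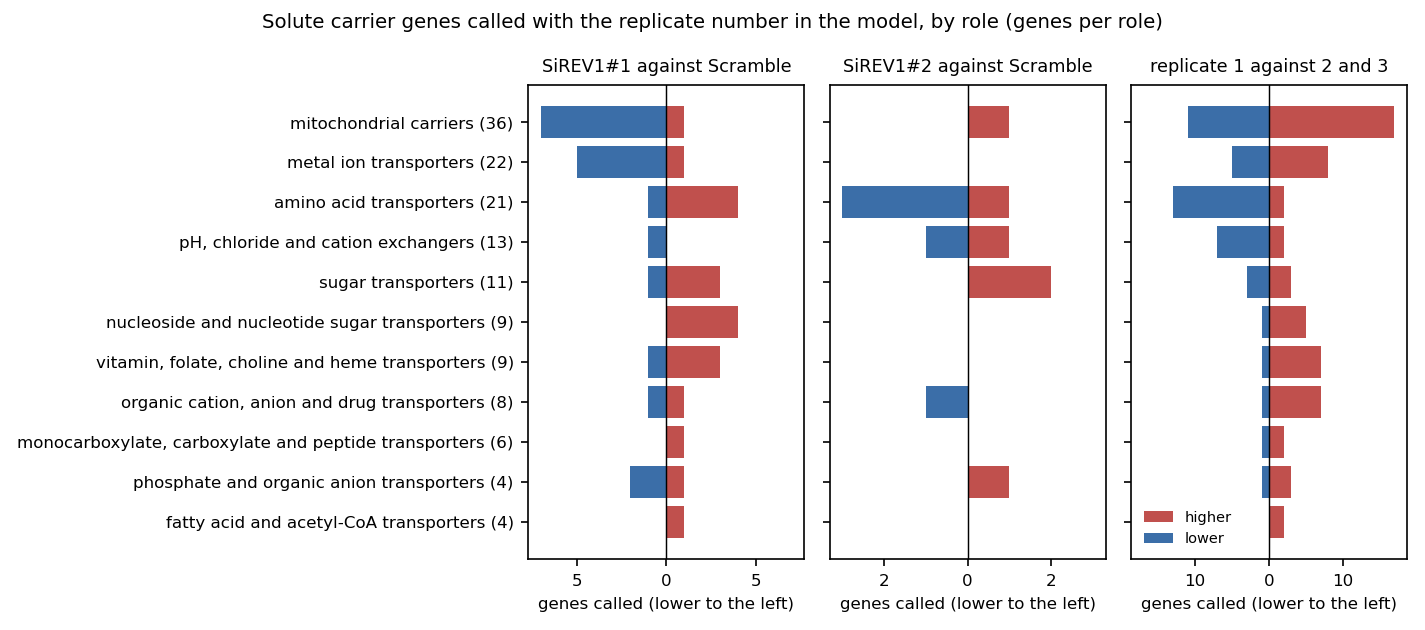
Number of genes per role that passed limma with the replicate number in the model (adjusted p under 0.05), higher to the right and lower to the left of 0, for SiREV1#1, SiREV1#2 and replicate 1, with each panel on its own scale and the number of genes per role in parentheses. Mitochondrial carriers gave 7 lower and 1 higher after SiREV1#1, with more rises called without SiREV1#1 replicate 1. Amino acid transporters gave 13 lower and 2 higher in replicate 1. The replicate 1 panel includes genes that reached the level only through Scramble replicate 1, so its counts are a description.

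Replicate 1 differed from replicates 2 and 3 at 102 of the 143 genes in a limma fit with the group taken out (58 higher, 44 lower), beside 65.6% of all genes (27.1% higher, 38.6% lower). With the 6 siRNA libraries alone, whose values did not choose the genes, 77 passed (42 higher, 35 lower), beside 49.5% (18.5% and 31.0%). The median of the 143 genes was 0.121, beside -0.124 over all genes, and median scaling moved these to 0.306 and 0.061, with 109 genes passing (70 higher, 39 lower), beside 66.2% (35.8% and 30.4%). Of the 143 genes, 7 averaged 3 FPKM or more in Scramble only through replicate 1, since replicates 2 and 3 were both below 3. The choice of genes by Scramble level therefore favored a rise in replicate 1 for SLC6A6, SLC16A13, SLC29A3, SLC16A3, SLC19A1, SLC22A17 and SLC26A2, and their replicate 1 differences over all 9 libraries are a description. The interaction of group and replicate 1, in which each group has 1 replicate 1 library that is assumed to vary like replicates 2 and 3, passed between SiREV1#1 and Scramble at 82 genes (beside 46.3% of all genes), between SiREV1#2 and Scramble at 35 (21.2%) and between the siRNAs at 90 (52.1%). With median scaling these were 69 (42.9%), 37 (19.9%) and 85 (51.2%). The sources used here do not say what the number stands for.

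Amino acid transporters were mostly lower in replicate 1, with 13 of 21 lower (61.9%, beside 38.6% of all genes) and 2 higher (9.52%, beside 27.1%), and 12 and 4 with median scaling, beside 30.4% and 35.8%. SLC3A2 gave 241, 635 and 615 FPKM in Scramble, 185, 781 and 738 after SiREV1#1 and 294, 639 and 666 after SiREV1#2. Replicate 1 was lower than both others in all 3 groups, and the difference was -1.52 ± 0.16 (limma adjusted p = 7.9e-05). SLC6A15 (-1.74), SLC1A4 (-1.32), SLC7A1 (-1.29), SLC7A6 (-1.24) and SLC38A2 (-1.17) were lower as well. SLC6A6, the taurine importer, went the other way and had the largest rise of all 143 genes, from 2.17 and 2.44 FPKM in Scramble replicates 2 and 3 to 36.3 in replicate 1, from 3.31 and 3.21 to 37.6 after SiREV1#1 and from 2.71 and 3.01 to 44 after SiREV1#2. The difference was 3.77 ± 0.12 over all 9 libraries and 3.69 ± 0.16 in the siRNA libraries alone (limma adjusted p = 0.0012).

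Organic ion transporters were higher at 7 of 8 genes and lower at 1, and the vitamin group was higher at 7 of 9 and lower at 1, beside 27.1% higher and 38.6% lower of all genes, with the same counts of members under median scaling, beside 35.8% and 30.4%. SLC22A17 in the first group and SLC19A1 in the second reached the level only through Scramble replicate 1, so these counts are a description. All 4 equilibrative nucleoside transporters were higher in replicate 1, with SLC29A3 at 2.61 ± 0.14, SLC29A1 at 2.14, SLC29A4 at 2.1 and SLC29A2 at 1.37. Monocarboxylate transporter SLC16A13 (2.62 ± 0.2), the lactate exporter SLC16A3 (2.32 ± 0.29) and the reduced folate carrier SLC19A1 (2.3 ± 0.23) were the other large rises. In the siRNA libraries alone the 4 genes of these that reached the level through Scramble replicate 1 gave 2.61 ± 0.2 (SLC29A3, limma adjusted p = 0.0018), 2.95 ± 0.15 (SLC16A13, 0.0013), 1.97 ± 0.35 (SLC16A3, 0.01) and 2.38 ± 0.33 (SLC19A1, 0.0055). Mitochondrial carriers went both ways, with 17 higher (47.2%) and 11 lower (30.6%), and metal ion transporters with 8 higher (36.4%) and 5 lower (22.7%).

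The largest fall in replicate 1 was that of SLC25A25, a calcium-sensitive ATP-magnesium carrier, at -2.61 ± 0.13 (limma adjusted p = 2.8e-06). It gave 2.62 FPKM in Scramble replicate 1 against 15.1 and 15.7 in the others, 1.83 against 15.3 and 14.8 after SiREV1#1 and 3.15 against 16.9 and 16.1 after SiREV1#2. The potassium-chloride cotransporter SLC12A4 (-2.15 ± 0.09) and the Golgi sodium-proton exchanger SLC9A8 (-1.86 ± 0.17) were lower by a similar margin. None of these 3 genes passed limma against Scramble for either siRNA, with or without the block.

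**Figure D5:**
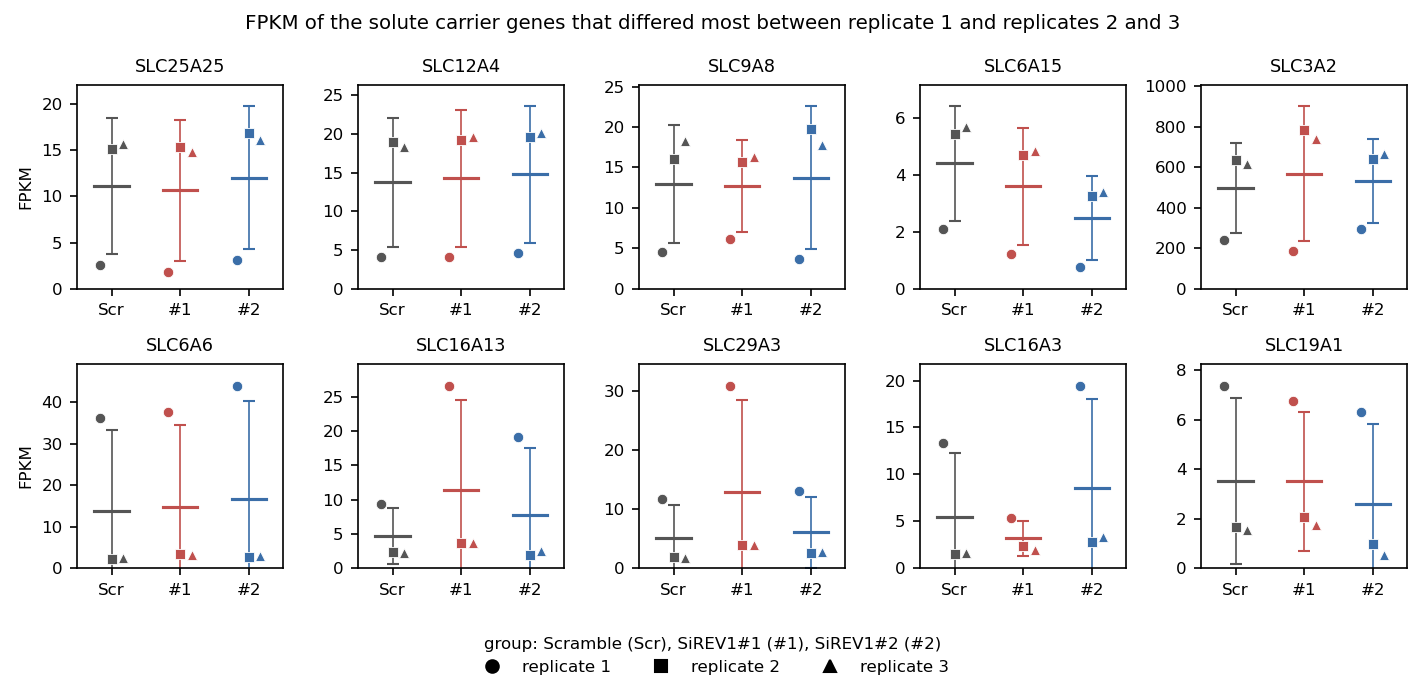
FPKM in each library for the 5 largest falls (top) and 5 largest rises (bottom) in replicate 1 among the 143 genes (vertical axis from 0), by group, with marker shape for the replicate number, a line at the mean and bars of 1 SD (n = 3). Circles (replicate 1) are below the squares and triangles in every group of the top panels and above them in every group of the bottom panels, and the 5 bottom genes reached the level that chose them only through Scramble replicate 1.

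Genes that serve these carriers were read from a list of 10 partners and a list of 9 regulators. Of 9 partners tested, 0 passed limma without the block for either siRNA or between them (adjusted p for BSG between the siRNAs = 0.098). BSG, the chaperone of the lactate transporters, gave 444, 331 and 307 FPKM in Scramble, 430, 364 and 346 after SiREV1#1 and 305, 130 and 133 after SiREV1#2. The SiREV1#2 libraries were the lowest of their numbers, and the block gave a fall of 1.03 on the log2 scale (SE 0.19, limma adjusted p = 0.015). With the block 1 partner rose after SiREV1#1, beside 6.2% of all genes, and BSG was the 1 that fell after SiREV1#2, beside 7.58%. Between the siRNAs the block called 2 partners higher after SiREV1#1 and 1 lower, beside 15.4% and 20.9%. EMB was too low to be tested.

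Of the 9 regulators, 2 passed between the siRNAs without the block and both were higher after SiREV1#1, beside 2.25% of all genes. TFEB, a regulator of lysosome genes, gave 3.57, 5.54 and 4.73 FPKM in Scramble, 3.45, 5.51 and 5.61 after SiREV1#1 and 1.86, 1.8 and 1.84 after SiREV1#2, with SiREV1#2 below every other library and a difference between siRNAs of 1.33 ± 0.25 (limma adjusted p = 0.023). SREBF2, a regulator of sterol synthesis, differed by 0.8 ± 0.13 (limma adjusted p = 0.015). In replicate 1, 5 regulators were lower and 1 higher, beside 38.6% and 27.1% of all genes. The larger falls were those of NEDD4L, a ubiquitin ligase (-1.65), and NFE2L2, a regulator of antioxidant genes (-1.59), and that of ATF4, a regulator of amino acid transporter genes, was -1.18 ± 0.09 (limma adjusted p = 1.7e-05). KRT8, AKR1B10, ALDH3A1 and CD68 were higher in replicate 1, at 1.17, 1.46, 1.4 and 1.41, and 6 of 8 tested epithelial and A549 markers were higher and 0 lower, beside the same 27.1% and 38.6%, so marker levels moved with the replicate 1 differences above. The summed FPKM of the listed markers of other cell types ran from 19 to 41.1 in Scramble, 20.2 to 85.8 after SiREV1#1 and 24.6 to 50.6 after SiREV1#2, nearly all of it CD68, and the part of these markers in the differences was not tested.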

How the data were processed

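The authors sequenced mRNA on the BGISEQ-500 platform and deposited, for each library, estimated counts (expected counts, not normalized) and FPKM with 2 decimals, over 18143 genes. The submitters' processing notes name hg38 and StringTie 1.3.3b, and the aligner is not given in the sources used here. Strand use in counting is not stated.

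log2(FPKM + 0.1) of the 11432 genes with a mean FPKM of at least 1 was fitted with limma 3.58.1 (trend, R 4.3.3) in one fit of 3 groups, with Benjamini-Hochberg adjustment over all of them. FPKM was used because the deposited count column of SiREV1#2 replicate 3 repeats replicate 2. Rounded expected counts of 8 libraries were tested with edgeR 4.0.16 and DESeq2 1.42.0 as alternatives. Limma with and without the block, and edgeR without it, were also run on simulated data for SiREV1#1 against Scramble. The simulated libraries held no replicate 1 shift, so that run cannot show how the fits handle it. Fold changes are on the log2(FPKM + 0.1) scale and understate changes of low genes.

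Libraries of one number departed from their groups' means together (correlation 0.732 to 0.925), so the replicate number was used as a block in an alternative fit, printed where it changed a count or call. The difference between replicates 2 and 3 alone correlated between -0.163 and 0.135 across groups, so the pairing rests on replicate 1. Genes, lists and roles were chosen with earlier results of these data known. Genes named were the largest changes among those passing (without the block, and with it where fewer than 5 passed), those moved 1.5-fold in 3 of 3 pairs for both siRNAs, the 5 largest rises and falls in replicate 1, the largest per role, the 10 highest levels and those nearest the level of 3. Some genes are not reported here. Further examples of a role were chosen after their values were seen. Seed words and sites were found in protein-coding transcripts of GENCODE release 29 (GRCh38), with the longest 3′ UTR per gene, for 11317 of the 11432 genes tested. The 50-base words of these transcripts of the 143 genes were sought in all transcripts of other genes in that release, pseudogenes and noncoding genes included. Of the 143 genes, 10 share over 10% of these words with other genes and 19 have over 10% of exon bases covered on the opposite strand. Counting depth limits precision, and intervals cover the spread between libraries. Alternatives were pseudocount 1, other filters and scalings, quantile normalization, limma without trend, the block, replicates 2 and 3 only, 2 groups only, and leaving out each library. The block with median scaling and without SiREV1#1 replicate 1 was added after seeing the data.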

Additional observations from a re-analysis of the deposited data

Results flagged for a closer look

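A limma test of the interaction of group and replicate 1 passed at 82 of the 143 genes between SiREV1#1 and Scramble, beside 46.3% of all genes. It passed at 35 between SiREV1#2 and Scramble (beside 21.2%) and at 90 between SiREV1#1 and SiREV1#2 (beside 52.1%). Of the 82, 13 were higher and 69 lower. With every library scaled to the same median 19 were higher and 50 lower, beside 42.9% of all genes in either direction. No share by direction over all genes is given, so this split is not read as particular to these genes. Each test rests on 1 replicate 1 library per group, which is assumed to vary like replicates 2 and 3, so it compares these libraries and not the groups. SiREV1#1 replicate 1 was the shallowest library.

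For 4 genes the values are given, each with the difference between the replicate 1 shifts of SiREV1#1 and Scramble (log2). SLC39A4, a zinc importer, gave 44.5, 44.5 and 36.7 FPKM in Scramble and 152, 43.6 and 46.9 after SiREV1#1, a difference of shifts of 1.61. SLC7A11, the cystine-glutamate exchanger, gave 26, 10.2 and 10.5 FPKM in Scramble and 10.9, 14.5 and 16.1 after SiREV1#1, a difference of -1.8. SLC16A3 gave 13.3, 1.46 and 1.64 FPKM in Scramble and 5.33, 2.3 and 1.92 after SiREV1#1, a difference of -1.72. SLC25A44, a mitochondrial carrier of branched-chain amino acids, gave 19.7, 14.2 and 13.6 FPKM in Scramble and 36.4, 10.9 and 12.2 after SiREV1#1, a difference of 1.14. After SiREV1#2 the shift of replicate 1 was 0.47 for SLC39A4, 0.96 for SLC7A11, 2.63 for SLC16A3 and 0.74 for SLC25A44, and in Scramble it was 0.14, 1.32, 3.02 and 0.5.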

How the results depend on the processing

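The number of solute carrier genes called depended mainly on the replicate block and on replicate 1, and the cause was not tested. After SiREV1#1 it was 4, against 39 with the replicate block, 42 with the block and median scaling, 61 with the block without SiREV1#1 replicate 1, 83 with replicates 2 and 3 only, 35 with edgeR and the block, 11 with DESeq2 and 1 among genes of at least 10 FPKM, where fewer genes are counted. Leaving out each library gave 2 to 7, with 2 without SiREV1#1 replicate 3 and 7 without SiREV1#2 replicate 1. After SiREV1#2 it was 0, against 11, 11, 44, 70, 1 and 2 in the same order of fits, and 0 without each library. Between the siRNAs it was 10, against 49, 50, 69 and 96 for the first 4 of these, 28 with edgeR and the block, 3 with edgeR, 6 with no filter, 3 with only the 2 groups compared, 5 above 2-fold and 1 at 10 FPKM or more; without each library it was 3 to 15. Counts for which no share over all genes is given are not read as results about these genes. Those with replicates 2 and 3 only rest on 2 libraries per group, whose small spread may be technical (SE 0.05 for SLC7A5 after SiREV1#1). Replicate 1 calls fell from 102 to 34 above 2-fold and 56 at 10 FPKM or more. Pair counts fell to 6 (SiREV1#1) and 0 (SiREV1#2) at 2-fold, and to 2 for SiREV1#2 with a pseudocount of 1.

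REV1 kept its direction in every fit, at -1.48 to -1.3 and -1.25 to -1.14 without each library. It missed the threshold with only the 2 groups compared (-1.38 and -1.19) and without some libraries, and for SiREV1#2 also with edgeR (-1.33) and no filter (-1.19). Among the contrasts for which a gene was named, 5 values changed sign, none past limma's threshold without the block, though SLC16A13 passed with it. SLC16A13 after SiREV1#1 ran from -0.01 (without SiREV1#1 replicate 1) to 1.59. After SiREV1#2, SLC16A3 ran from -0.07 (without SiREV1#2 replicate 1) to 1.81, SLC29A1 from -1.52 to 0.11 (without Scramble replicate 1), and SLC19A1 turned with DESeq2 (0.09) and edgeR (0.07). Depth limits the genes near 3 FPKM most, and no interval was set on FPKM from counts.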
